A study of Drosophila melanogaster with 4 samples.

Results

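Transcripts of 8 secreted immune products were followed in the ovary of Drosophila melanogaster: IM2, IM3, IM4, IM14, Drosomycin (Drs), Attacin A (AttA), Turandot M (TotM) and Tep4. They were taken by gene name from the authors' tables of genes that differed between genotypes, and all 8 were found among the 1283 genes listed there. The tables compare ovaries of snf148 females, whose full genotype adds snf148 and v to y w, taken as 3 day adults, with ovaries of wild-type females, genotype y w, taken as virgins 0 to 24 hours after eclosion. Both genotypes thus carried y and w, and only the mutant carried v. Each had 2 libraries of total RNA from whole ovaries. The gene sans fille (snf) encodes a protein of the spliceosome, and in snf148 females the germ cells lack Sex-lethal protein and form tumours, so the cell makeup of these ovaries is not that of the wild type. Genotype, age and the v allele differed together, the mating status of the mutant females is not given, and these cannot be told apart.

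Flies answer infection by secreting small peptides into the body fluid, mainly from the fat body and the haemocytes. The Toll pathway, triggered mostly by fungi and Gram-positive bacteria, drives Drosomycin, the Bomanins and the Daisho peptides, whereas the Imd pathway, triggered by the peptidoglycan of Gram-negative bacteria, drives attacins and diptericins. The JAK-STAT pathway contributes to the Turandot and thioester-containing proteins, which respond to stress and wounding. Several of these genes are also expressed by epithelia, the female reproductive tract among them.

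The values are the authors' mean FPKM, fragments scaled to transcript length and to the mapped fragments, with 1 mean per genotype. No value per library was analysed here, so no SD stands beside a mean, the depth is unknown, and whether the libraries of the genotypes overlapped cannot be said. The test of each difference is the one in the authors' deposited table. No listed gene has an adjusted P above 0.0497 there, and the smallest value it takes is 0.00126, shared by 466 genes (36.3% of those listed). Genes outside the tables were not analysed here. In bulk ovary RNA, fewer cells of a type and less RNA per cell cannot be told apart. Germline genes were looked up beside the ovary label: 4 of the 10 on that list were in the tables, all above 0 in both genotypes. Of these osk, the organiser of the germ plasm, stood at 248 FPKM in snf148 and 967 FPKM in wild type. Its locus spans 4117 bp in the tables against 3270 bp in the reference annotation, so its value is uncertain. As 1242 of the 1283 listed genes were above 0 in both genotypes, being above 0 is only a weak check of the label.

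The Toll-induced peptides IM2, IM3, IM4, IM14 and Drs were lower in snf148 ovaries, while AttA, TotM and Tep4 were higher. Lower members were thus 5 of 8, where 48.2% of all listed genes were lower, and higher members were 3 of 8, where 51.8% were higher. A share this close to the background says little about the 8 genes as a set, and the account below is therefore by family. Members at least 4-fold lower were 3 of 8, IM14, IM3 and IM2, against 9.98% of all listed genes. Members at least 4-fold higher were also 3 of 8, against 30.2%, a share near the background. Within direction, 128 of the 618 lower and 387 of the 665 higher listed genes reached 4-fold. IM14, listed at 0 in snf148, was counted as past 4-fold although it has no finite ratio. The median log2 ratio of snf148 over wild type was -1.65 over the 7 members above 0 in both genotypes and 0.62 over the 1242 listed genes of that kind. Genes near 0 are not listed, so both medians depend mostly on how many genes went each way. Within direction, the median was -2.26 for lower members and -1.06 for lower listed genes. It was 2.75 for higher members and 2.26 for higher listed genes, again over genes above 0 in both genotypes. In the authors' deposited table the adjusted P of all 8 members was at most 0.01, as it was for 60.1% of listed genes.

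**Figure D1:**
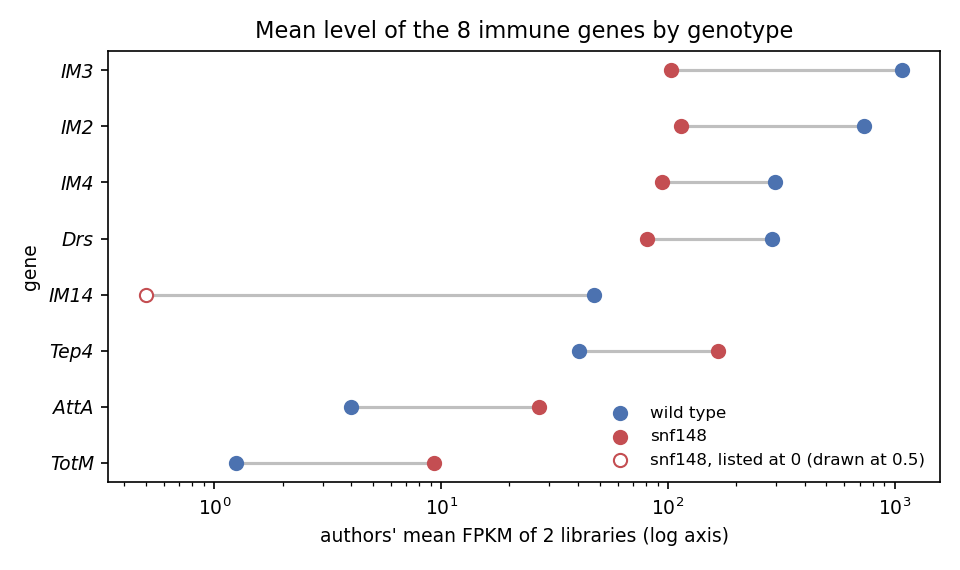
Authors' mean FPKM of each of the 8 genes on a log axis, in wild type (blue) and snf148 (red), with genes ordered by the wild-type mean. Each point is 1 mean without replicate error, and the open circle marks IM14, listed at 0 in snf148 and drawn at 0.5. The 5 genes with the highest wild-type means lie lower in snf148, and Tep4, AttA and TotM lie higher.

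IM3, a short Bomanin now named BomS3, was the most abundant of the 8 in wild type. Its mean was 1076 FPKM in wild type and 103 FPKM in snf148, a 10.4-fold lower level (log2 ratio -3.38, adjusted P 0.00126 in the authors' deposited table). In wild type it ranked 6 among all 1283 listed genes by mean FPKM, and in snf148 it ranked 157. The Bomanins are needed for Toll-dependent survival of bacterial and fungal infection. The gene lies at 14275625 to 14275995 on 2R by the tables' own coordinates, whose genome build is not stated, and the reference annotation gives it a product of 39 residues. That locus spans 371 bp against 840 bp in the reference, where transcripts measure 301 to 769 bp, so the value of IM3 is uncertain.

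IM2, the short Bomanin BomS2, stood at 733 FPKM in wild type and 114 FPKM in snf148. The difference was 6.41-fold (log2 ratio -2.68, adjusted P 0.00126 in the authors' deposited table). In snf148 the mean of IM2 was above that of IM3, the reverse of their order in wild type, although without library values the order of the genes cannot be set against their spread. IM2 lies at 14274102 to 14274535 on 2R, 1089 bp before IM3 and on the same strand. Both genes have 2 exons in the reference, and the product of IM2 has 45 residues.

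IM2 and IM3 belong to a tandem cluster of Bomanin genes that was lower as a block. Of the 10 genes that the reference annotation places in this cluster, 8 were in the tables, and all 8 were lower in snf148 (background 48.2%), by 4.20-fold to 11.0-fold with a median log2 ratio of -2.87. They span 7906 bp, from 14270209 to 14278114 on 2R, and no other listed gene lies between them. BomT1 and BomS4, the remaining genes of the cluster, were not in the tables and were not analysed here. BomS4 overlaps CG15067 on the opposite strand in the reference. The library kit was stranded per the labels, but whether strand was used in counting is not given in the sources used here, so the value of CG15067 may include reads of BomS4. The Bomanins are close paralogues, and how shared reads were split among them is likewise not given.

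Levels within the cluster covered a wide range in both genotypes. IM1 (BomS1) stood at 169 FPKM in wild type and 15.4 FPKM in snf148, the largest ratio of the cluster at 11.0-fold. CG15068 (BomS6) stood at 963 FPKM in wild type and 229 FPKM in snf148, the smallest ratio at 4.20-fold. The weakest gene in both genotypes was IM23 (BomBc1), at 9.0 FPKM in wild type and 1.27 FPKM in snf148. CG15067 (BomBc2) had means of 292 FPKM in wild type and 36.6 FPKM in snf148. CG15065 (BomS5) had means of 189 and 25.1 FPKM, and CG16836 (BomT2) of 177 and 37.5 FPKM, wild type first. The short, tailed and bicipital Bomanins, as the letters S, T and Bc in the reference names class them, thus all had lower means in snf148. IM3 ranked 1 of the 8 by mean FPKM in wild type and 3 in snf148, whereas CG15068 moved from rank 2 to rank 1.

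**Figure D2:**
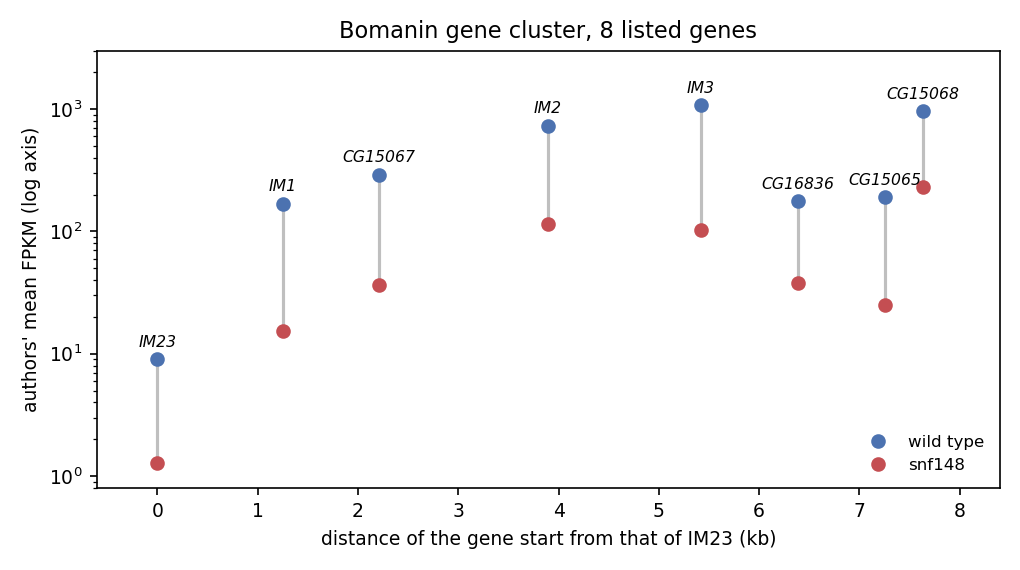
Authors' mean FPKM on a log axis of the 8 listed genes of the Bomanin cluster, against the distance of each gene's start from that of IM23 in kb, for wild type (blue) and snf148 (red). Grey lines join the means of 1 gene. Every wild-type mean lies above the snf148 mean of the same gene, by 4.20-fold for CG15068 to 11.0-fold for IM1.

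IM4 and IM14 encode the Daisho peptides Dso1 and Dso2, which protect against filamentous fungi downstream of Toll. IM4 stood at 295 FPKM in wild type and 93.9 FPKM in snf148, a 3.15-fold difference (log2 ratio -1.65, adjusted P 0.00126 in the authors' deposited table). IM14 stood at 47.0 FPKM in wild type and was listed at 0 in snf148, with the same adjusted P in that table. No ratio is given for it, since its floor cannot be set without counts. Only 2 listed genes were at 0 in snf148, IM14 and the cuticle gene Edg91, whereas 39 were at 0 in wild type.

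The Daisho genes are neighbours, and both were lower in snf148. IM4 lies at 16756350 to 16756826 on 2R and IM14 at 16757897 to 16758183, 1070 bp apart and on opposite strands in the reference. Products of 42 and 46 residues are annotated for them. The annotated transcript of IM14 measures 223 bp, the shortest of the 8 genes, and transcripts of IM4 measure 418 to 767 bp. The authors' locus of IM4 spans 477 bp against 826 bp in the reference, too short for the longer transcript, so its value is uncertain. FPKM values of such short transcripts depend on how length was corrected, and the part of transcript length in the 0 of IM14 was not tested.

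Drs encodes Drosomycin, an antifungal peptide of the defensin type and the standard readout of Toll activity. Its mean was 288 FPKM in wild type and 80.4 FPKM in snf148, a 3.58-fold difference (log2 ratio -1.84, adjusted P 0.00126 in the authors' deposited table). The gene has 1 exon and a product of 70 residues, and lies at 3369556 to 3369942 on 3L with no other listed gene starting within 20 kb. Drs and IM4 had similar wild-type means and similar ratios, while IM2 and IM3 were higher in wild type and differed more between genotypes. In snf148 the means of IM2, IM3, IM4 and Drs lay between 80.4 and 114 FPKM, although in wild type they ran from 288 to 1076 FPKM.

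AttA encodes an attacin, a glycine-rich peptide active against Gram-negative bacteria. Its mean was 4.0 FPKM in wild type and 26.9 FPKM in snf148, a 6.74-fold higher level (log2 ratio 2.75, adjusted P 0.00223 in the authors' deposited table). AttA is at 10634876 to 10635698 on 2R, and its product has 221 residues in the reference. AttB, a near-identical neighbour that can share its reads, was not in the tables, so the value of AttA is uncertain. The other antimicrobial peptides in the tables went the opposite way from AttA.

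The tables held 5 of 22 antimicrobial peptide genes, and of these 1 was higher and 4 were lower (background 51.8% and 48.2% of listed genes), with a median log2 ratio of -1.84. Besides AttA and Drs these were AttC, Dpt and DptB. The diptericin genes Dpt (DptA in the reference) and DptB encode peptides against Gram-negative bacteria. Dpt stood at 94.1 FPKM in wild type and 17.2 FPKM in snf148, and DptB at 73.3 FPKM in wild type and 25.9 FPKM in snf148. The authors' deposited table gives DptB an adjusted P of 0.0490, near the limit of the tables. The locus of DptB there spans 778 bp against 505 bp in the reference, so its value is uncertain. The attacin gene AttC stood at 68.9 FPKM in wild type and 8.63 FPKM in snf148, but its locus in the tables spans 5664 bp against 963 bp in the reference, so its value may belong to more than 1 gene. AttA and AttC, both attacins, thus had ratios of opposite sign, 2.75 and -3.00 on the log2 scale.

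TotM belongs to the Turandot family, secreted proteins that accumulate in the body fluid after stress, wounding or infection. Its mean was 1.25 FPKM in wild type and 9.28 FPKM in snf148, a 7.40-fold higher level (log2 ratio 2.89, adjusted P 0.00469 in the authors' deposited table). It was the weakest of the 8 genes in wild type. TotM lies at 5329857 to 5330464 on 2L and has a product of 131 residues. It was the only one of 8 Turandot genes in the tables. The locus of the neighbouring gene fusl lies 5 bp after that of TotM. On opposite strands in the reference, the 2 genes have their transcript ends, not their starts, side by side. The level of fusl went the other way, with 10.2 FPKM in wild type and 1.94 FPKM in snf148.

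Tep4 encodes a thioester-containing protein, a secreted relative of vertebrate complement factors that can mark microbes for uptake. Its mean was 40.4 FPKM in wild type and 167 FPKM in snf148, a 4.14-fold higher level (log2 ratio 2.05, adjusted P 0.00126 in the authors' deposited table). In snf148 this was the highest mean of the 8 genes, and in wild type it ranked below IM2, IM3, IM4, Drs and IM14. With 1476 to 1498 residues its products are proteins rather than peptides, so the name peptide does not cover it. Tep4 lies at 19548507 to 19556451 on 2L. Of 6 thioester protein genes, 3 were in the tables, and they were split, 2 higher and 1 lower (background 51.8% and 48.2%). Macroglobulin complement-related (Mcr), a relative needed for septate junctions, stood at 33.5 FPKM in wild type and 56.1 FPKM in snf148, and Tep2 at 26.6 FPKM in wild type and 8.86 FPKM in snf148.

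Considered by family, every listed Bomanin and Daisho gene was lower. Of 21 Bomanin, Daisho and Baramicin genes and other immune-induced molecules on the list, 11 were in the tables, and all 11 were lower in snf148, 9 of them by at least 4-fold (background 48.2% and 9.98% of listed genes). The median log2 ratio was -2.75 over the 10 above 0 in both genotypes, beside -1.06 over all lower listed genes of that kind. The gene of this list outside the cluster and the Daisho pair was CG16712 (IM33), at 170 FPKM in wild type and 64.3 FPKM in snf148. Over the antimicrobial, Bomanin and Daisho, Turandot and thioester protein lists together, 20 genes were in the tables, 16 lower and 4 higher (background 48.2% and 51.8%). Of the 12 that are not among the 8 genes described above, 11 were lower and Mcr was higher. These lists were drawn up with earlier results of the same data known, so the counts are descriptions and not independent evidence.

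**Figure D3:**
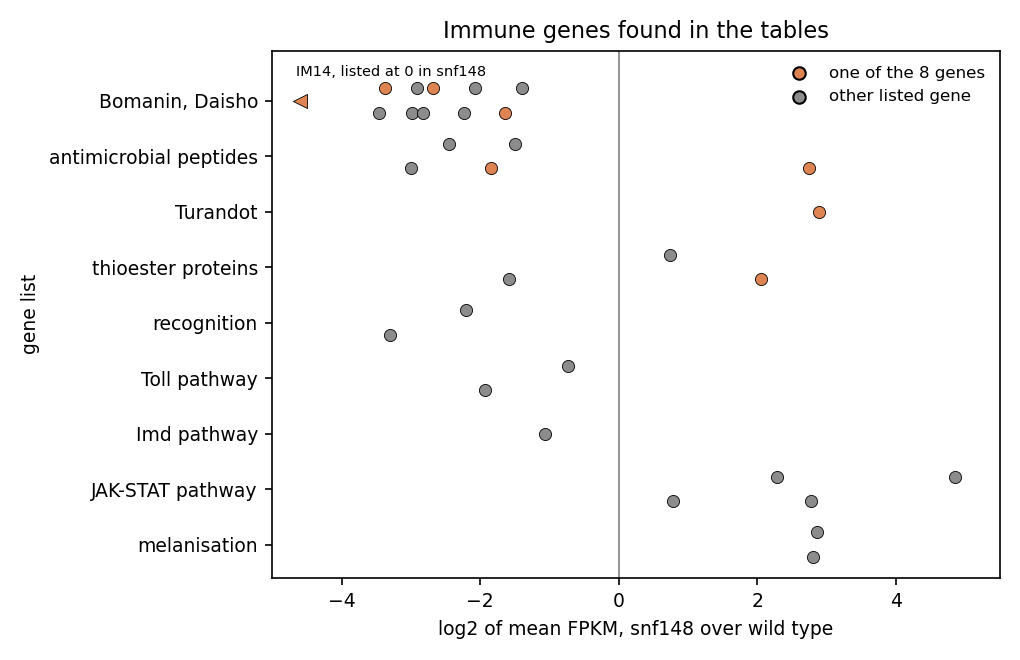
Log2 of the authors' mean FPKM in snf148 over wild type for each gene of 9 immune lists found in the tables, 1 point per gene, the 8 genes in orange and others in grey. Vertical shifts within a list only separate points, and the triangle stands for IM14, listed at 0 in snf148. All 11 points of the Bomanin and Daisho list, IM33 included, lie left of 0, and all 4 JAK-STAT points lie right of it.

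Genes of the Toll, recognition and Imd lists were sparsely represented. Of 30 Toll pathway genes, 2 were in the tables, both lower, where 48.2% of all listed genes were lower. The receptor gene Tl stood at 46.7 FPKM in wild type and 28.3 FPKM in snf148, and SPE, which encodes the protease that activates the Toll ligand, at 14.9 FPKM in wild type and 3.92 FPKM in snf148. The locus of SPE in the tables spans 4091 bp against 1893 bp in the reference, so its value may also include another gene. Among 17 recognition genes, 2 were listed, both lower (background 48.2%). PGRP-SB1, a secreted peptidoglycan-cleaving protein, stood at 81.0 FPKM in wild type and 8.25 FPKM in snf148, and CG13422 (GNBP-like3) at 19.5 FPKM in wild type and 4.22 FPKM in snf148. From the Imd list of 19 genes, cad was listed, a homeobox gene that also restrains antimicrobial genes in the gut, at 39.7 FPKM in wild type and 19.1 FPKM in snf148.

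The listed JAK-STAT genes had the same direction as TotM and Tep4 and the opposite one from Tep2. A link between them was not tested. Of its 14 genes, 4 were listed and all 4 were higher in snf148 (background 51.8%). Their median log2 ratio was 2.53, near the 2.26 of all higher listed genes above 0 in both genotypes. The ligand gene upd3, a cytokine of wounded tissue, stood at 0.934 FPKM in wild type and 6.39 FPKM in snf148, and the related ligand gene upd2 at 0.0919 FPKM in wild type and 2.67 FPKM in snf148. Such low wild-type means make the ratios of both ligand genes uncertain. The feedback inhibitor gene Socs36E stood at 20.4 FPKM in wild type and 35.0 FPKM in snf148, and chinmo, a transcriptional effector of the pathway, at 1.22 FPKM in wild type and 5.96 FPKM in snf148. Of 11 melanisation genes, 2 prophenoloxidase genes were listed and higher (background 51.8%). proPO45 (PPO2) stood at 2.11 FPKM in wild type and 14.7 FPKM in snf148. proPO-A1 (PPO1) stood at 2.37 FPKM in wild type and 17.2 FPKM in snf148, but its locus in the tables spans 51646 bp against 2754 bp in the reference, so this value is uncertain.

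Markers of the tissues that usually secrete these products were listed in both directions. The tables held 5 of 19 fat body genes, of which 3 were higher and 2 lower (background 51.8% and 48.2%), with a summed mean of 372 FPKM in wild type and 429 FPKM in snf148. The odorant-binding protein gene Obp99a stood at 62.3 FPKM in wild type and 175 FPKM in snf148, Obp99b at 25.4 and 95.5 FPKM, and the lipophorin gene Rfabg at 25.3 and 59.8 FPKM. The larval serum protein gene Lsp1gamma stood at 141 FPKM in wild type and 39.0 FPKM in snf148, and CG3523 (FASN1), a fatty acid synthase, at 119 FPKM in wild type and 59.9 FPKM in snf148. Of 16 haemocyte genes, 6 were in the tables, 2 higher and 4 lower (background as for the fat body), with a summed mean of 1504 FPKM in wild type and 766 FPKM in snf148. Nplp2 alone made up 906 FPKM of the wild-type sum and 362 FPKM of the snf148 sum, so the sums depend largely on 1 gene. The peroxidasin gene Pxn was higher, at 24.6 FPKM in wild type and 94.8 FPKM in snf148, as was lz at 0.0565 and 0.483 FPKM. Nplp2 was lower, at 906 FPKM in wild type and 362 FPKM in snf148, as were the collagen IV genes Cg25C, at 242 and 135 FPKM, and vkg, at 253 and 162 FPKM, and nimC4, at 78.0 and 11.3 FPKM. The locus of nimC4 spans 54232 bp in the tables against 1282 bp in the reference, and that value is uncertain. None of the listed markers of either tissue was at 0, but 1242 of all 1283 listed genes were likewise above 0 in both genotypes. The part of fat body or haemocyte RNA in the immune genes was not tested.

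By size of ratio within their direction, IM3 ranked 38 of the 618 lower genes, IM2 78, Drs 140 and IM4 153. IM14 and Edg91, both listed at 0 in snf148, have no finite ratio and were tied ahead of the others. The place of IM14 is thus not a measured size of difference. Among the 665 higher genes TotM ranked 251, AttA 279 and Tep4 382.

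**Figure D4:**
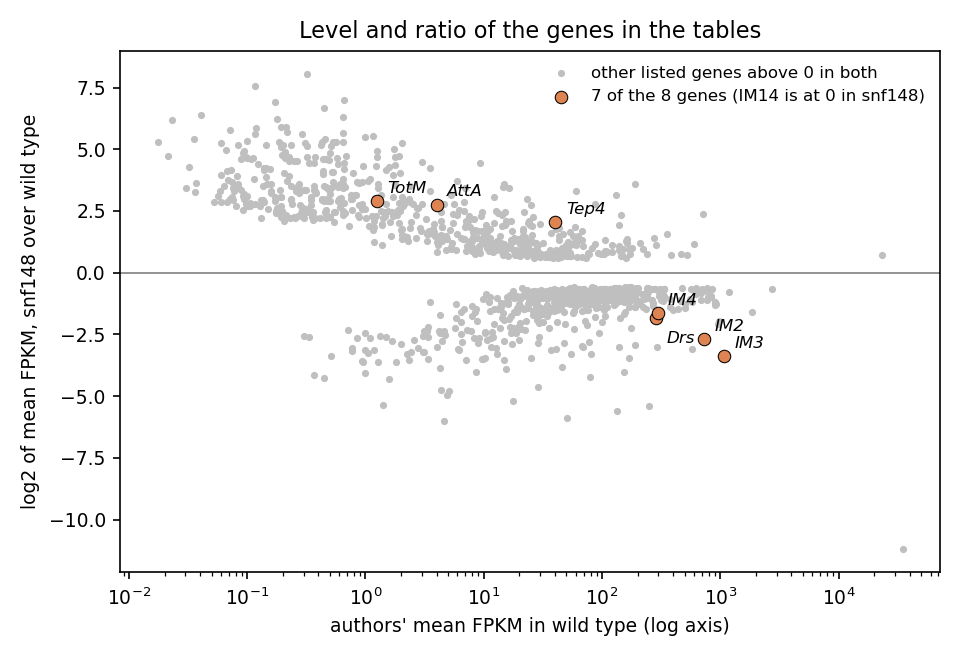
Log2 of the authors' mean FPKM in snf148 over wild type against the mean FPKM in wild type (log axis) for the 1242 listed genes above 0 in both genotypes, 1 point per gene. The tables hold only genes past the authors' threshold, so the band near 0 is empty. IM2 and IM3 lie below 0 and farthest right among the 7 genes marked, though not among all points. TotM, AttA and Tep4 lie within the cloud of higher genes.

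Likeness of pattern could be measured only as the difference of log2 ratios between 2 genotype means, over listed genes that reached 10 FPKM in either genotype. The ratios nearest to that of IM3 were those of the maltase gene Mal-A6, GstE14 and IM1, at -3.44, -3.45 and -3.46 on the log2 scale. Nearest to Drs were CG7149, Lsp1gamma and CG3690, with log2 ratios of -1.85, -1.85 and -1.86. Nearest to Tep4 were mfas at 2.02, CG5835 at 2.07 and CG13905 at 2.08 on the log2 scale. With only 2 means per gene, many genes have like ratios.

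Other listed genes near the members did not share 1 direction. GstE5, a glutathione transferase gene whose start lies 16500 bp from that of IM3, was higher, at 0.525 FPKM in wild type and 8.81 FPKM in snf148. CG9993, with a start 18699 bp from that of IM4, was also higher, at 0.234 and 1.79 FPKM. CG12858, 2041 bp from AttA, was higher like AttA itself, at 0.356 FPKM in wild type and 1.70 FPKM in snf148. Next to Tep4, ref(2)P, the fly p62 autophagy receptor gene, was higher, at 93.3 FPKM in wild type and 161 FPKM in snf148, and CG13082 was lower, at 14.8 FPKM in wild type and 1.26 FPKM in snf148.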

How the data were processed

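Ovary RNA of 2 genotypes was sequenced with 2 libraries each. Per the submitters' processing notes, TopHat2 2.0.9 and Cuffdiff were used. The sources used here do not give the genome build, the annotation or how reads were counted. Per the file headers, the authors deposited for each listed gene a locus, 1 mean FPKM per genotype, the log2 fold change taken as wild type against snf148, and P values before and after adjustment.

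Folds and log2 ratios were recomputed from the deposited mean FPKM as snf148 over wild type, with pandas 2.3.3 and no pseudocount. They differed from the authors' log2 values by at most 1.2e-05 for the members. The table titled as downregulated holds genes higher in snf148. The limma fit planned for values per library could not be run. Starts were moved to count from 1. Names, strands, transcript lengths and residues come from the reference annotation (Ensembl release 115 on release 6 of the genome), matched by symbol or synonym for 1266 of 1283 genes. The tables do not state their build, so all printed positions and distances are the tables' own. Reference coordinates served only for the extent of the Bomanin cluster, overlaps of genes and the reference spans. Counts and medians were tested on simulated data. The members and the 14 gene lists were chosen with earlier results of these data known. Named genes were the 8 members, up to 4 genes per direction of each list, listed genes starting within 20 kb of a member, and the 3 genes nearest in ratio to IM3, Drs and Tep4; cluster genes, CG16712 and Edg91 were named after their values were seen. As alternatives, the adjusted P limit was set to 0.01, a 4-fold minimum or a 10 FPKM minimum was required, the authors' log2 values were used, and pseudocounts of 1 and 0.1 FPKM were added. Replicates are separate samples per the labels, which do not say whether they came from separate flies.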

Additional observations from a re-analysis of the deposited data

How the results depend on the processing

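No paired analysis was possible because the tables give 1 mean per genotype and no value per library; for the same reason leaving out each replicate and the replicate block were not run. The count of members lower in snf148 was 3 rather than 5 with at least 4-fold required, since IM4 and Drs fall short of that fold by construction. An adjusted P limit of 0.01, a minimum of 10 FPKM in either genotype and the authors' log2 values left it at 5, and the count of higher members was 3, 2 and 3 there. These outcomes too were fixed by construction. No member exceeds an adjusted P of 0.00469 in the authors' deposited table, and the 5 lower members have at least 47.0 FPKM in wild type. The authors' log2 values are the same ratios. A pseudocount of 1 FPKM lowered the log2 ratio of TotM from 2.89 to 2.19, as it does by construction for a gene of 1.25 FPKM in wild type. The other 20 of 21 alternative log2 ratios of single members moved by less than 1.5-fold, and none changed sign; IM14 has no ratio. Those that used the authors' log2 values repeat the same ratios and are no separate check. The median log2 ratio of members stayed between -1.75 and -1.64. Leaving out AttA, which has a close paralogue, and ranking IM14 beyond all finite ratios were added after the data were seen; each gave a median of -1.75. Weakly expressed members such as TotM and AttA are the ones whose unknown depth limits precision most.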

Other observations

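Markers of tissues beside the ovary were also in the tables. Of 14 spermatheca and reproductive tract genes, 4 were listed, all higher in snf148 and by at least 4-fold (background 51.8% higher and 30.2% at least 4-fold higher among listed genes), with a median log2 ratio of 4.59 and a summed mean of 2.15 FPKM in wild type and 70.5 FPKM in snf148. The spermathecal protease gene Send1 stood at 0.985 FPKM in wild type and 44.6 FPKM in snf148. CG17239 stood at 0.180 and 13.6 FPKM, and CG32834 at 0.930 and 11.9 FPKM. The locus of CG32834 spans 2715 bp in the tables against 1752 bp in the reference, so its value is uncertain. lz, at 0.0565 and 0.483 FPKM, is on the haemocyte list as well. No wild-type mean of these 4 genes exceeded 0.985 FPKM, so their ratios are uncertain. Of 18 gut and trachea genes, the protease gene Jon65Aiv was listed, at 4.25 FPKM in wild type and 0.773 FPKM in snf148. Of the germline genes, orb stood at 191 FPKM in wild type and 71.9 FPKM in snf148, grk at 41.4 and 18.9 FPKM, and bgcn at 1.78 and 21.1 FPKM. The part of these tissues in the levels of the immune genes was not tested.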
